A study of Mus musculus with 6 samples.

Results

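The interleukins and interleukin receptors described here are the rows of the gene count table whose symbol starts with Il and a digit, apart from Il6, Il6ra, Il6st and Il11, with at least 10 counts summed over the 6 mice. Of 26608 gene symbols in the table, 85 had such a symbol, 81 remained after the 4 exceptions and 45 reached the count, namely 31 receptor chains and 14 secreted proteins. The choice used the total over both genotypes and not the difference between them. Il28ra, which the symbol rule brings in, encodes the receptor chain for interferon lambda and is now called Ifnlr1. Just inside the limit lay Il12b with 10 counts and Il11ra2 with 11, and just outside it Il1rl1 and Il9r with 9 each. Of the 45 members, 33 passed the expression filter and were tested, and 12 were too scarce.

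Interleukins are the signalling proteins through which leukocytes, endothelium, stroma and hepatocytes instruct one another, and each acts through a receptor built of separately encoded chains. Most chains recruit JAK kinases and STAT transcription factors. The receptors of the interleukin 1 family instead signal through MyD88 to NF-kB, and those of the interleukin 17 family signal through the adaptor Act1. In the liver, hepatocytes carry receptors for interleukin 1 and interleukin 22, while the chains that bind interleukin 2, interleukin 7 or interleukin 21 belong mainly to lymphocytes.

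The study sequenced messenger RNA from the livers of 3 LiKM mice and 3 LiK mice, all 6 weeks old. The labels do not spell out the genotype names. From general knowledge of the study, and not from its labels or files, hepatocytes of LiKM mice are understood to lack Mdm2. On that reading the comparison sets livers without and with hepatocyte Mdm2 side by side. The labels do not name the Cre line. Nothing in the labels says whether animals shared a litter or a day of collection.

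The libraries held 19909993 to 20762712 counts in LiKM and 20778717 to 24874343 in LiK, and the members took 0.0538% to 0.0618% of them in LiKM and 0.0522% to 0.0633% in LiK. CPM below stands for counts scaled to library size with TMM factors. A gene is called where edgeR's quasi-likelihood test gave it a p under 0.05 after Benjamini-Hochberg adjustment over all 13537 genes tested. Mdm2 itself, a p53 target whose gene-level count cannot show a deleted exon, had 122, 125 and 60.5 CPM in LiKM and 28.7, 29.0 and 28.6 CPM in LiK (log2 fold change 1.83; edgeR adjusted p = 0.0196), so this row does not check the genotype labels. Hepatocyte markers summed to between 128097 and 147513 CPM in LiKM and between 126315 and 150754 CPM in LiK. Of these markers edgeR called 0 of the 13 with a row in either direction, beside 5.92% of all genes. Calls over all genes numbered 802, and without LiKM 1, LiKM 2, LiK 1, LiK 2 or LiK 3 they came to 376, 47, 31, 19 and 311, with a genotype reduced to 2 mice in each such fit.

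The receptor genes Il2rb, Il2rg and Il10ra rose in LiKM. These 3 are 9.09% of the 33 members tested, beside 5.11% of all genes tested that were higher. None of the members was called lower by edgeR, beside 0.813% of all genes. At an unadjusted edgeR p under 0.05, 13 of the 33 members tested were higher and 4 were lower. Of the 13537 genes tested, 2078 (15.4%) were higher and 954 (7.05%) lower at that limit. After adjustment, 2 members were called lower by DESeq2 and by limma-voom. The 3 LiKM mice lay above the 3 LiK mice in 15 tested members (45.5%), beside 17.8% of all genes, and below them in 4 (12.1%), beside 11.8%. In either direction, 5.92% of all genes were called and 29.6% did not overlap. Scarce members passed the filter partly through the group in which they were higher, so these shares describe the tested members and not all 45. Among the 15 members with a mean of at least 5 CPM over the 6 mice, 1 was higher (6.67%) and LiKM lay above LiK in 4 (26.7%) and below in 3 (20%), beside 3.47%, 12.1% and 14.5% of the 9613 genes at that level.

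The median log2 fold change was 0.53 over the tested members and −0.0034 over all genes tested. By kind, the median was 0.45 for the 23 tested receptor chains, with 18 positive and 5 negative, and 0.58 for the 10 tested secreted proteins, with 9 positive and 1 negative. Of all genes tested, 49.5% were positive. None of the 10 tested secreted proteins was called by edgeR, beside 5.92% of all genes. At that share so few genes show nothing particular to secreted proteins.

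**Figure D1:**
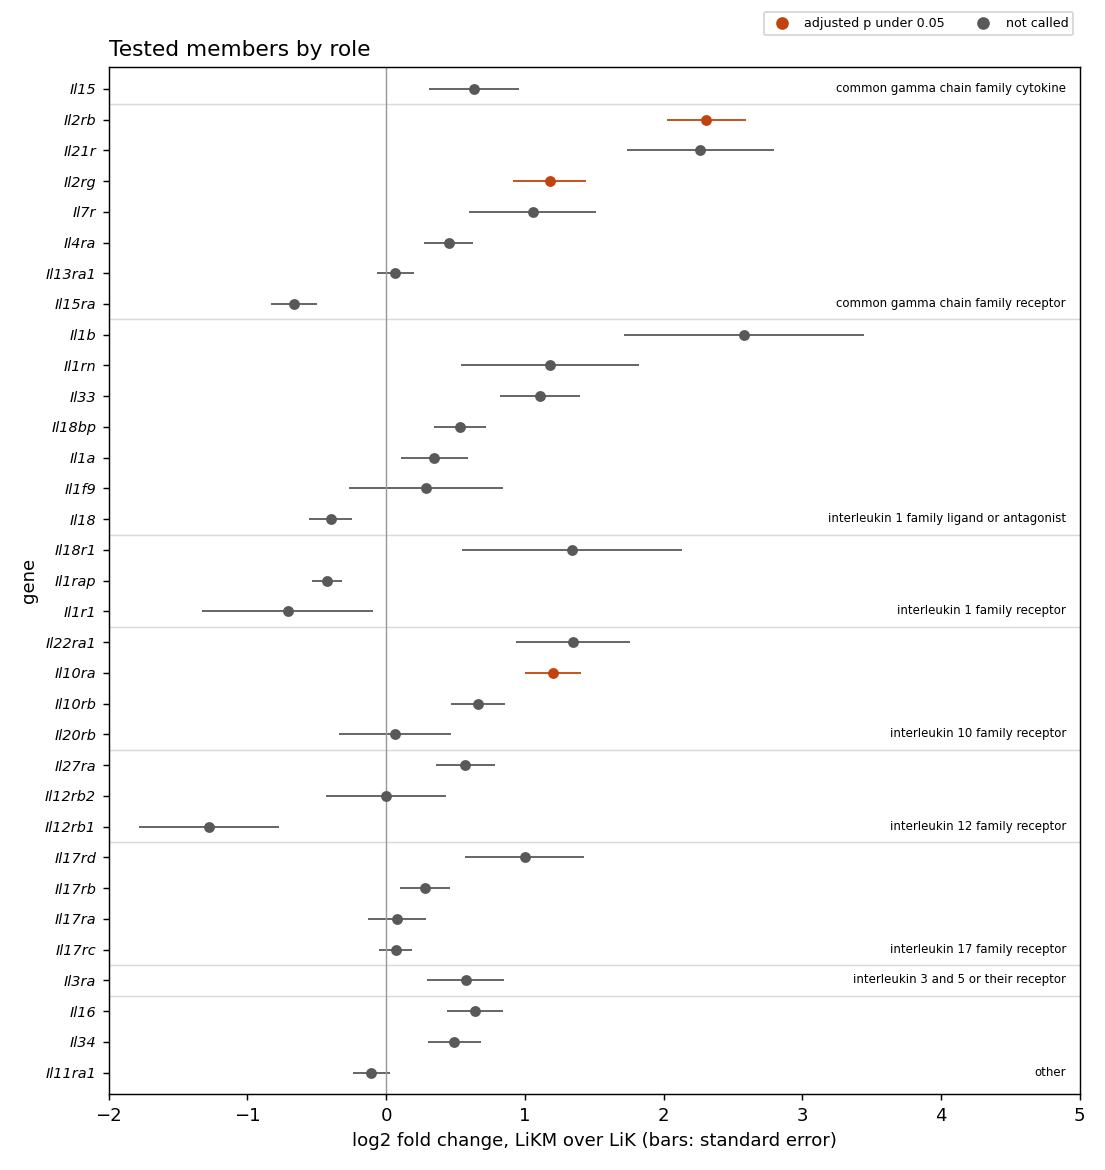
Log2 fold change, LiKM over LiK, of the 33 tested members, grouped by role, with bars for the standard error of the edgeR fit. The 3 called genes, Il2rb, Il2rg and Il10ra, stand at 2.31, 1.18 and 1.20, and the values run from −1.28 (Il12rb1) to 2.58 (Il1b).

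Il2rg encodes the common gamma chain, the subunit shared by the receptors for interleukins 2, 4, 7, 9, 15 and 21, and Il2rb encodes the beta chain that joins it in the receptors for interleukins 2 and 15. Promoters are shown for the gamma chain and for Il21r and Il7r, whose products pair with it and which had higher mean levels in LiKM. These genes were picked by hand, and Il4ra, to which the same applies, is not shown. No entry was found for Il2rb or Il10ra. Each sequence comes from RefSeq (GRCm38.p6), runs 5′ to 3′ on the gene's strand from 250 bases before the start site to 50 after it, and has motif matches in capitals. The Il2rg promoter lies at chrX:101268206-101268505 on the minus strand, that of Il21r at chr7:125603179-125603478 on the plus strand and that of Il7r at chr15:9529827-9530126 on the minus strand.
Il2rg: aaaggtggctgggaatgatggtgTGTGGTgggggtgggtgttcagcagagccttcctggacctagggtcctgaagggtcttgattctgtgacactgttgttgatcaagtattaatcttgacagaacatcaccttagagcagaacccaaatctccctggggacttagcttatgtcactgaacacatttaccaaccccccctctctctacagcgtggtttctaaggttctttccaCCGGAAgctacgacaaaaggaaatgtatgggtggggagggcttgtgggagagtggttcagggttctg
Il21r: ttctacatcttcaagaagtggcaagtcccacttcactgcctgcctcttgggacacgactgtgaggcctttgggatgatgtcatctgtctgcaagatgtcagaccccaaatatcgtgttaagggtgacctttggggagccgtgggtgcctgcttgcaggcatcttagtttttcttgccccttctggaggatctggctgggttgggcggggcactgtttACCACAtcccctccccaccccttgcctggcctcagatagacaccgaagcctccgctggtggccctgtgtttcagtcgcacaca
Il7r: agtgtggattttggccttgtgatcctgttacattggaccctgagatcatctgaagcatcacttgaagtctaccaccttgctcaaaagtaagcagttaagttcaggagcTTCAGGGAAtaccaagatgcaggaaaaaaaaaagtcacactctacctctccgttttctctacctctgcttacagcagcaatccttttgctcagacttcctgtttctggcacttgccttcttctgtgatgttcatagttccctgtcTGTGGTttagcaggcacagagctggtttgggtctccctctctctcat

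Both strands were searched for the RUNX core TGTGGT, the ETS-type string CCGGAA and the STAT site TTCNNNGAA, and no matches overlapped one another. The RUNX core was in all 3 windows, on the reverse strand in Il21r, and in 16.8% of 32851 promoters of this length. The string CCGGAA was in the Il2rg window, 17 bases before the start site, and in 14.9% of all promoters. Other forms of ETS site were not searched, so windows without this string may still hold them. The STAT site was in the Il7r window and in 8.30% of all. These matches describe the letters and show no binding, and 3 picked windows give no share to compare with all promoters.

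The beta and gamma chains both rose. Il2rb had 3.52, 4.22 and 4.19 CPM in LiKM, against 0.530, 1.01 and 0.862 CPM in LiK. Every LiKM mouse lay far above every LiK mouse, on 75 to 93 counts per LiKM library and 11 to 21 per LiK library. The difference was 4.95-fold (log2 fold change 2.31, SE 0.29; edgeR adjusted p = 0.0135). Il2rg had 3.48, 4.04 and 5.06 CPM in LiKM, against 2.17, 1.36 and 2.01 CPM in LiK, with no overlap. It was 2.26-fold higher (log2 fold change 1.18, SE 0.26), at an edgeR adjusted p of 0.0478 that lies close to the threshold. A same-strand gene model, Gm20489, covers 30.5% of the exon length of Il2rg in GENCODE M21, and the labels do not say how reads in that stretch were counted.

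The call of Il2rb was lost without LiKM 2, LiK 1 or LiK 2 (edgeR adjusted p = 0.0619, 0.0522 and 0.0554), with log2 fold changes from 2.09 to 2.49 over the 6 omissions. The call of Il2rg was lost in each of the 6 omissions (edgeR adjusted p between 0.0733 and 0.142), with log2 fold changes between 1.00 and 1.30. It was also lost with DESeq2's size factors (edgeR adjusted p = 0.0508).

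The specific chains that pair with the gamma chain differed in abundance. Il21r, the receptor chain for interleukin 21, had 0.893, 2.40 and 1.78 CPM in LiKM and 0.337, 0.151 and 0.533 CPM in LiK. The groups did not overlap, but the counts were small and edgeR did not call the log2 fold change of 2.27 (SE 0.53; adjusted p = 0.0549). It was called by DESeq2 (adjusted p = 0.00393) and by limma-voom (adjusted p = 0.0399). Il7r, the interleukin 7 receptor alpha chain of naive and memory T cells, had 0.564, 0.998 and 0.627 CPM in LiKM and 0.289, 0.201 and 0.533 CPM in LiK, with no overlap and an edgeR adjusted p of 0.231. Il2ra, the alpha chain of activated and regulatory T cells, was too scarce to test, with 4 to 6 counts in the LiKM libraries and 1 to 10 in the LiK libraries.

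Il4ra and Il13ra1, chains that hepatocytes and stroma also carry, had higher CPM than Il21r, Il7r and Il2ra in both genotypes. Il4ra, which binds interleukin 4 and also forms the interleukin 13 receptor, had 37.2, 37.6 and 55.8 CPM in LiKM and 28.9, 33.3 and 33.4 CPM in LiK (log2 fold change 0.45, SE 0.18; edgeR adjusted p = 0.195). The groups did not overlap, and LiKM 3 was the highest of the 6 mice. Il13ra1, its partner in that receptor, had 49.8 ± 5.17 CPM in LiKM and 47.6 ± 5.82 CPM in LiK (SD, n = 3 each), and the groups overlapped. Il13ra2, a decoy receptor for interleukin 13, was read mainly in LiKM 1, with 24 counts there, 3 and 4 in the other LiKM libraries and 1 to 4 in the LiK libraries.

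Interleukin 15 is presented to T and natural killer cells by Il15ra on the cell that makes it. Il15ra stood on the other side of zero from the lymphocyte chains, at 30.3, 25.8 and 19.6 CPM in LiKM and 42.1, 38.7 and 38.9 CPM in LiK. The groups did not overlap, and the log2 fold change of −0.66 (SE 0.16) missed the edgeR threshold (adjusted p = 0.0621). DESeq2 and limma-voom called it lower (adjusted p = 0.0102 and 0.0353). Il15 itself had 1.79, 2.09 and 1.35 CPM in LiKM and 0.963, 0.856 and 1.52 CPM in LiK, with overlap through LiK 3 (edgeR adjusted p = 0.304). The ratio of Il15 to Il15ra counts within a library, which needs no scaling, was 0.0589, 0.0810 and 0.0690 in LiKM and 0.0229, 0.0221 and 0.0390 in LiK. The ratios did not overlap, and their exact 2-sided permutation p of 0.10 is the smallest that 3 mice against 3 allow. The pair was picked after the values of both genes were seen, so the ratio restates their differences.

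Il7, the stromal and hepatocyte cytokine that sustains T cells, had 10, 12 and 9 counts in the LiKM libraries and 1, 2 and 3 in the LiK libraries. It did not reach the expression filter. In the fit without that filter its log2 fold change was 2.31 (SE 0.60), with an edgeR adjusted p of 0.0643. The cytokines that T cells themselves release through this family were scarcer still. Il2 and Il9 had 0 counts in all mice, where 3 counts would amount to 0.123 to 0.151 CPM. Il13, whose receptor of Il4ra and Il13ra1 does not include the gamma chain, also had 0 counts. Il21 had 1 count in LiKM and 2 in LiK. Il4 had 0 counts in each LiKM library and 3, 2 and 2 in the LiK libraries, at or under that limit.

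**Figure D2:**
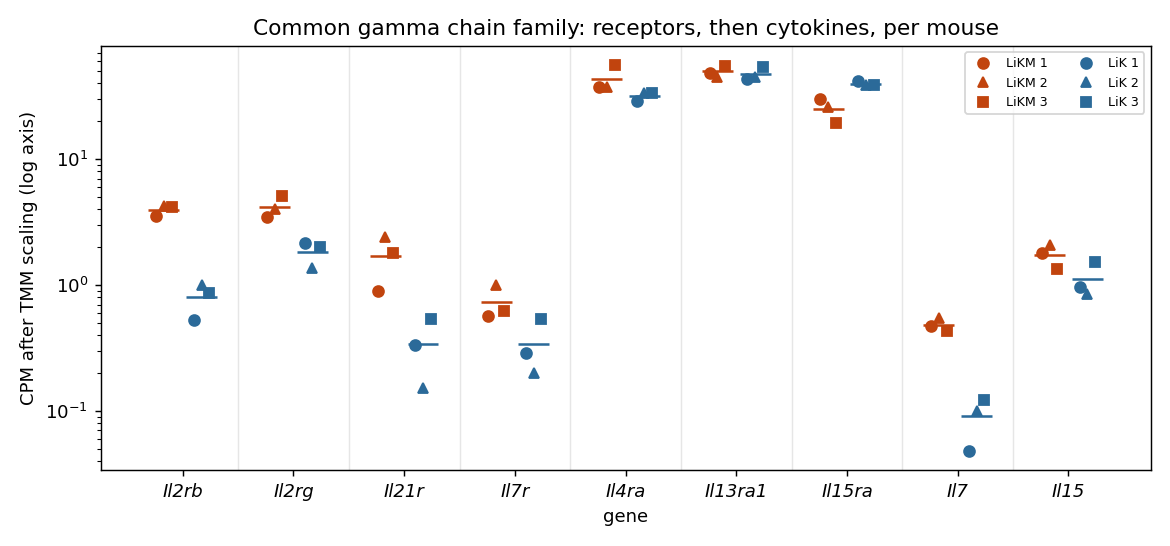
CPM after TMM scaling (log axis) of common gamma chain family receptors and cytokines in each mouse, with LiKM in orange left of LiK in blue, marker shapes for the mouse number and lines for group means. Il2rb, Il2rg, Il21r, Il7r and Il7 lie higher in all 3 LiKM mice and Il15ra lies lower. Il13ra1, shown as the partner of Il4ra and not of the gamma chain, overlaps.

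Several T and natural killer cell markers were also higher in LiKM. In bulk liver, more cells of a type and more RNA per cell cannot be told apart. Of all genes tested, 5.11% were called higher and 0.813% lower. Of 23 T and natural killer cell markers, 17 were tested, 12 rose and 0 were called lower by edgeR. The smallest adjusted p was for Ccl5 (log2 fold change 4.72) and Cd8a (4.10). Many of the T and natural killer cell markers had few counts in LiK and could pass the expression filter through LiKM alone. The count therefore describes the tested markers and not the list. Cd4, the helper T cell coreceptor, averaged 1.73 CPM in LiKM and 3.34 CPM in LiK (log2 fold change −0.94), and Zap70, a T cell receptor kinase, 7.92 CPM in LiKM and 7.30 CPM in LiK (0.12), and neither was called. The markers summed to between 31.3 and 43.5 CPM in LiKM and between 12.6 and 18.2 CPM in LiK, without overlap, and none was at 0 in all mice. Without LiKM 1, LiKM 2, LiK 1, LiK 2 or LiK 3, the number that rose was 7, 2, 2, 1 and 5, and it was 5 where every tested gene had to reach 1 CPM in 3 libraries. Of 8 markers listed for regulatory T cells, 5 were tested and 2 rose, Capg and Tnfrsf18, while the defining gene Foxp3 was too scarce to test. Both calls were lost without LiKM 2, LiK 1 or LiK 2, and 1 of them without LiKM 1 or LiK 3. Capg is also made by macrophages and Tnfrsf18 by activated T cells in general. That list summed to between 12.3 and 19.8 CPM in LiKM and between 5.15 and 6.03 CPM in LiK. Of 11 B and plasma cell markers, 8 were tested and edgeR called 0, which with so few genes is near the shares of all genes. Their median log2 fold change was 0.43, and 1 was called higher without LiK 3. The B and plasma cell list summed to between 10.6 and 13.8 CPM in LiKM and between 5.97 and 13.3 CPM in LiK. The part of these cells in the rise of Il2rb and Il2rg was not tested.

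The interleukin 10 receptor binds its ligand through Il10ra and signals together with Il10rb, a chain shared with the receptors for interleukin 22 and interferon lambda. Il10ra, made mainly by leukocytes, had 7.38, 9.03 and 8.34 CPM in LiKM, against 2.79, 4.13 and 3.82 CPM in LiK. The LiKM mice lay above all LiK mice, and the gene was 2.30-fold higher (log2 fold change 1.20, SE 0.20; edgeR adjusted p = 0.0245). Its call was lost without LiKM 2, LiK 1, LiK 2 or LiK 3 (edgeR adjusted p = 0.0898, 0.0815, 0.0748 and 0.0542), with log2 fold changes between 1.05 and 1.31 over the 6 omissions. Il10rb had 10.6, 10.8 and 13.2 CPM in LiKM and 5.68, 8.71 and 7.47 CPM in LiK, also without overlap, but was not called (log2 fold change 0.66, SE 0.19; edgeR adjusted p = 0.0952). A same-strand gene model, Gm21970, covers 14.9% of its exon length.

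Il10, the cytokine these chains serve, was read 2, 4 and 2 times in the LiKM libraries and 0 times in each LiK library, under the count needed for membership. Il22ra1, the interleukin 22 receptor chain of hepatocytes and other epithelia, had 7.14, 12.7 and 18.4 CPM in LiKM and 3.90, 7.55 and 3.57 CPM in LiK. LiKM 1 lay below LiK 2, so the groups overlapped, and edgeR did not call the log2 fold change of 1.35 (SE 0.41; adjusted p = 0.108), while DESeq2 did (adjusted p = 0.0152). Its ligand Il22 had 0 counts in all mice. Il28ra was read 9, 6 and 29 times in the LiKM libraries and 3, 2 and 6 times in the LiK libraries, too few to test. The cholangiocyte markers, a list of another epithelium of the liver, summed to 112, 213 and 240 CPM in LiKM and 255, 106 and 83.6 CPM in LiK. Of its 8 tested members 1 rose, beside 5.11% of all genes. That gene, Prom1, was no longer called without LiKM 2 or any 1 of the LiK mice. The part of these cells in the Il22ra1 values was not tested.

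Some myeloid markers were higher in LiKM as Il10ra was. Of 20 macrophage and monocyte markers, all tested, 8 rose and 0 were called lower by edgeR, beside 5.11% and 0.813% of all genes. The smallest adjusted p was for Lyz2, whose log2 fold change of 0.63 was the smallest of the 8, and for C1qa (0.81). The sums of the list overlapped, at 725 to 1033 CPM in LiKM and 622 to 872 CPM in LiK. The number that rose was 3 without LiKM 1, 7 without LiKM 3 and 0 without any of the other 4 libraries. Of 11 dendritic cell markers, all tested, 3 rose, and the list summed to between 370 and 390 CPM in LiKM and between 183 and 217 CPM in LiK. Cd74, an invariant chain gene that B cells and macrophages also express, had the smallest adjusted p of these 3, and in each of the 6 omissions 1 member rose. The part of these cells in the rise of Il10ra was not tested.

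**Figure D3:**
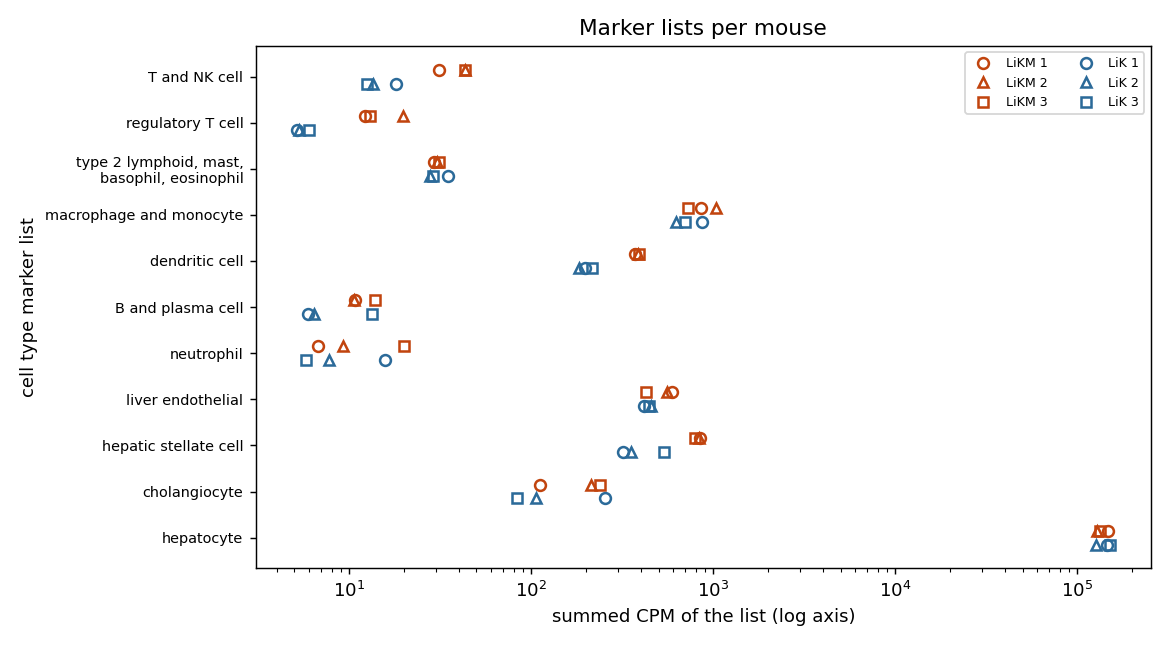
Summed CPM (log axis) of each cell type marker list in each mouse, with LiKM in orange above LiK in blue. T and NK cell, regulatory T cell, dendritic cell and hepatic stellate cell sums lie higher in all LiKM mice, and the other sums overlap.

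The interleukin 1 family combines inflammatory ligands with natural antagonists. Il1b, the secreted form made mainly by activated myeloid cells, had 1.46, 2.09 and 11.5 CPM in LiKM and 0.385, 0.856 and 1.23 CPM in LiK. The groups did not overlap, but LiKM 3 was far above every other mouse, with 239 counts against 31 and 46 in the other LiKM libraries. The log2 fold change was 2.58 (SE 0.87) and was not called by edgeR (adjusted p = 0.137), while DESeq2 called it (adjusted p = 0.00905). Without LiKM 3 it was 1.07 on the log2 scale. Il1rn, the receptor antagonist that blocks interleukin 1, also peaked in LiKM 3, at 5.97, 5.63 and 20.1 CPM in LiKM and 6.84, 1.66 and 5.42 CPM in LiK (edgeR adjusted p = 0.332). Neutrophil markers were highest in LiKM 3 too, and summed to 6.77, 9.30 and 19.96 CPM in LiKM and 15.6, 7.75 and 5.79 CPM in LiK. Of 12 markers 4 were tested and edgeR called 0, beside 5.92% of all genes, which among so few genes is no result about neutrophils. Ly6g reached at most 0.0964 CPM in any mouse, and the part of neutrophils in the Il1b values was not tested.

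Il1a, the cell-associated ligand, varied little, at 3.15, 4.81 and 4.92 CPM in LiKM and 2.99, 3.17 and 3.94 CPM in LiK, with overlap. Il33, the alarmin that stromal and endothelial nuclei store, had 4.70, 4.86 and 4.48 CPM in LiKM and 1.78, 1.56 and 3.12 CPM in LiK. The LiKM mice lay close together and above all LiK mice. The log2 fold change of 1.11 (SE 0.29) missed the edgeR threshold (adjusted p = 0.0707), and limma-voom (adjusted p = 0.0208) and DESeq2 (adjusted p = 0.0108) called it. Its receptor Il1rl1 was read 0 to 4 times a library. Of 13 hepatic stellate cell markers, 5 rose, beside 5.11% of all genes, and the list summed to 797 to 842 CPM in LiKM and 320 to 539 CPM in LiK. Without LiKM 1, LiKM 2, LiK 1 or LiK 2 the number was 0, and without LiKM 3 it was 3. Of 15 liver endothelial markers 1 rose, Plvap, which is near the share of all genes. The sums of that list overlapped, at 428 to 595 CPM in LiKM and 415 to 456 CPM in LiK. Plvap was lost without LiKM 2, LiK 1 or LiK 2. The part of these cells in the Il33 values was not tested.

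Il18, the inflammasome substrate made by Kupffer cells and epithelia, and Il18bp, the secreted protein that neutralises it, stood on opposite sides of zero. Il18 had 7.61, 8.26 and 9.06 CPM in LiKM and 11.7, 9.21 and 11.98 CPM in LiK (log2 fold change −0.40, SE 0.16; edgeR adjusted p = 0.192). Il18bp had 20.2, 24.7 and 17.98 CPM in LiKM and 16.7, 15.4 and 11.4 CPM in LiK (log2 fold change 0.53, SE 0.19; edgeR adjusted p = 0.151). Neither gene was called, and neither overlapped between the genotypes. The ratio of Il18bp to Il18 counts within a library was 2.65, 2.99 and 1.98 in LiKM and 1.42, 1.68 and 0.952 in LiK, without overlap (exact 2-sided permutation p = 0.10, the smallest possible). It was computed after the values were seen and restates the differences of the 2 genes. Il18r1, the receptor chain, was scarce at 0.423, 0.681 and 0.627 CPM in LiKM and 0.144, 0 and 0.492 CPM in LiK, with overlap.

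The receptor chains Il1r1 and Il1rap were among the most abundant members per length. Per kilobase of GENCODE M21 exon, Il1r1, the signalling receptor for interleukin 1, averaged 14.9 ± 9.03 CPM in LiKM and 24.3 ± 15.7 CPM in LiK, and its accessory chain Il1rap 11.8 ± 0.704 CPM in LiKM and 15.8 ± 1.17 CPM in LiK (SD, n = 3 each). Il13ra1 averaged 13.4 ± 1.39 CPM per kilobase in LiKM, above Il1rap there, and 12.8 ± 1.57 CPM per kilobase in LiK, below it (SD, n = 3 each). Il17rc and Il18 came next over the 6 mice, at means of 10.9 and 9.35 CPM per kilobase. The spread of Il1r1 is too wide to place it apart from Il1rap. Il1r1 had 158, 47.2 and 77.9 CPM in LiKM and 249, 165 and 50.1 CPM in LiK, so the mice of 1 genotype differed more than the group means did (log2 fold change −0.71, SE 0.61; edgeR adjusted p = 0.540). LiK 3 lay near LiKM 2. Il1rap was steadier, at 137, 125 and 140 CPM in LiKM and 171, 174 and 195 CPM in LiK, without overlap. Its log2 fold change of −0.42 (SE 0.11) missed the edgeR threshold (adjusted p = 0.0658), and DESeq2 and limma-voom called it lower (adjusted p = 0.00534 and 0.0339).

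**Figure D4:**
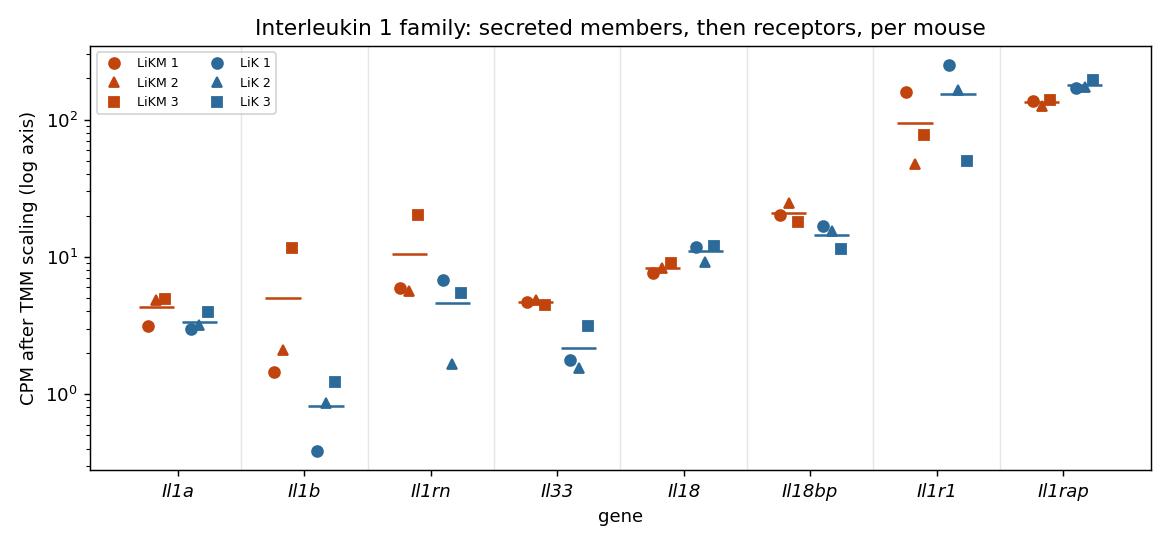
CPM after TMM scaling (log axis) of interleukin 1 family members in each mouse, with LiKM in orange left of LiK in blue and lines for group means. Il1b and Il1rn are highest in LiKM 3 (11.5 and 20.1 CPM), Il33 and Il18bp lie higher and Il18 and Il1rap lower in all LiKM mice, and Il1r1 spreads widely within both genotypes.

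The interleukin 12 family acts between antigen-presenting cells and T or natural killer cells. Il12rb1, the chain shared by the receptors for interleukins 12 and 23, had 1.22, 0.318 and 0.386 CPM in LiKM and 1.49, 1.81 and 1.395 CPM in LiK. The groups did not overlap, and the log2 fold change of −1.28 (SE 0.50), the lowest of the members tested, was not called by edgeR (adjusted p = 0.193). Without LiKM 1, the library nearest to LiK, it was −2.16 and was called (edgeR adjusted p = 0.0445). Il12rb2, its partner, overlapped fully, at 0.798 ± 0.301 CPM in LiKM and 0.794 ± 0.279 CPM in LiK (SD, n = 3 each), and antisense exons of Serbp1 cover 40% of its exon length. Il27ra, which restrains T cells on binding interleukin 27, had 2.26, 2.31 and 2.56 CPM in LiKM and 1.54, 1.61 and 1.64 CPM in LiK, a narrow gap without overlap (edgeR adjusted p = 0.175). The ligands were near the limit of detection. Il12b had 2, 4 and 3 counts in LiKM and 0, 1 and 0 in LiK, and Il27 had 5, 5 and 4 counts in LiKM and 4, 0 and 1 in LiK.

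Of the interleukin 17 receptors 4 were tested and edgeR called 0, beside 5.92% of all genes, a share at which so few genes show nothing particular to the family. Il17ra, the shared signalling chain, had 22.1, 20.1 and 28.5 CPM in LiKM and 28.7, 20.4 and 17.9 CPM in LiK. Il17rc, its partner for interleukins 17A and 17F, had 29.7 ± 2.07 CPM in LiKM and 28.3 ± 3.00 CPM in LiK (SD, n = 3 each), and both genes overlapped. Il17rb, the chain for interleukin 25, had 8.08, 10.7 and 7.57 CPM in LiKM and 6.36, 7.60 and 7.72 CPM in LiK, with overlap. Il17rd, a chain that also dampens fibroblast growth factor signalling, had 0.799, 0.953 and 1.35 CPM in LiKM and 0.289, 0.453 and 0.780 CPM in LiK, without overlap and with an edgeR adjusted p of 0.228. Il17re was too scarce to test, with 2 to 5 counts in LiKM and 4 to 13 in LiK. Among the ligands, Il17a had 1 count in all, Il17f and Il25 had 0 and Il17d had 18.

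Other secreted members showed small differences. Il16, a T cell attractant that binds CD4, had 4.89, 5.22 and 4.44 CPM in LiKM and 2.60, 3.07 and 3.65 CPM in LiK (log2 fold change 0.64, SE 0.20; edgeR adjusted p = 0.119). Il34, a ligand of the macrophage receptor Csf1r, had 4.04, 4.04 and 4.82 CPM in LiKM and 3.42, 2.97 and 2.79 CPM in LiK (log2 fold change 0.49, SE 0.19; edgeR adjusted p = 0.191). Neither overlapped between the genotypes and neither was called. Il3ra, the interleukin 3 receptor alpha chain of basophils and plasmacytoid dendritic cells, had 2.91, 3.58 and 3.66 CPM in LiKM and 2.50, 1.51 and 2.79 CPM in LiK, also without overlap (edgeR adjusted p = 0.278). Its ligand Il3 had 0 counts. Il11ra1 had 27.9 ± 2.04 CPM in LiKM and 30.1 ± 4.06 CPM in LiK (SD, n = 3 each), with overlap, and reads shared with its near copy Il11ra2 leave both uncertain. Il1f9, Il20rb, Il1r2, Il1rl2 and Il18rap make up the remaining members, and their groups overlapped.

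**Figure D5:**
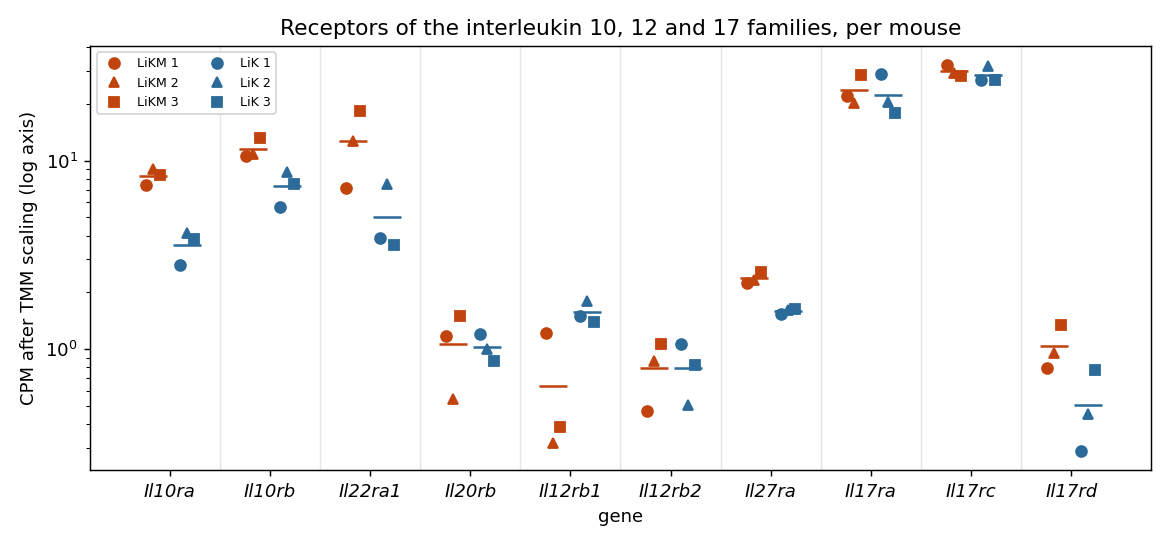
CPM after TMM scaling (log axis) of receptors of the interleukin 10, 12 and 17 families in each mouse, with LiKM in orange left of LiK in blue and lines for group means. Il10ra, Il10rb, Il27ra and Il17rd lie higher and Il12rb1 lower in all LiKM mice, while Il17ra, Il17rc, Il20rb and Il12rb2 overlap.

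Genes that signal downstream of these receptors held 1 call in each of 3 lists, near the 5.11% of all genes that were higher, so those counts are no result about the lists. Of 24 JAK-STAT genes, 23 were tested and 1 rose. The feedback inhibitor gene Socs1 had 0.517, 1.27 and 2.12 CPM in LiKM and 0, 0.352 and 0.369 CPM in LiK and was not called (edgeR adjusted p = 0.146). The other Socs genes of the list and Cish went in both directions, and none was called. Their log2 fold changes ran from −0.40 (Socs7) to 1.46 (Socs3), the latter highest in LiKM 3. Of 21 genes that signal for or process interleukin 1 family ligands, 1 rose, Pycard, the inflammasome adaptor, at 1.08, 1.86 and 2.02 CPM in LiKM and 0.578, 0.453 and 0.492 CPM in LiK (log2 fold change 1.69, SE 0.35; edgeR adjusted p = 0.0378). The median log2 fold changes of these lists were 0.23 and 0.17.

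Of 14 genes of interleukin 17 signalling, 12 were tested and 1 rose, the neutrophil chemokine gene Cxcl1, at 48.8, 49.9 and 101 CPM in LiKM and 15.3, 13.7 and 25.8 CPM in LiK (log2 fold change 1.86, SE 0.36; edgeR adjusted p = 0.0338). Many other signals also induce Cxcl1. Of 20 receptor partners and related cytokines, without an Il symbol apart from Il28ra, itself a member, 12 were tested and 2 rose, beside 5.11% of all genes. Csf1, the growth factor that shares its receptor with Il34, had 14.6, 23.9 and 21.2 CPM in LiKM and 7.70, 7.85 and 9.93 CPM in LiK (log2 fold change 1.23, SE 0.21; edgeR adjusted p = 0.0251). Csf2rb2, the mouse beta chain specific to interleukin 3, had 2.91, 3.95 and 4.92 CPM in LiKM and 1.16, 1.51 and 1.60 CPM in LiK (log2 fold change 1.46, SE 0.28; edgeR adjusted p = 0.0324), but it is a near copy of Csf2rb, which was not called. The medians were 0.16 and 0.58. No member of the 4 lists was called lower by edgeR with all 6 mice, and without LiKM 2, LiK 1 or LiK 2 none was called at all. Pycard was also lost without LiKM 3 (edgeR adjusted p = 0.0779) or LiK 3 (0.0928), and Csf2rb2 without LiKM 3 (0.0574) or LiK 3 (0.0670).

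Of the 81 rows considered, 18 had 0 counts in all mice and another 18 had between 1 and 9. Those at 0 were Il2, Il3, Il5, Il9, Il13, Il17f, Il20, Il20ra, Il22, Il24, Il25, Il28a, Il28b, Il31, Il1f5, Il1f6, Il1f8 and Il1f10, most of them cytokines that activated lymphocytes or barrier epithelia make. At these depths the data show which chains liver RNA contained, and such a transcript was not detectable rather than shown to be absent. Markers of type 2 innate lymphoid cells, mast cells, basophils and eosinophils, the usual sources or targets of interleukins 4, 5, 13 and 33, had 4 of 15 tested and 0 called by edgeR. Beside 5.92% of all genes called, a count of 0 among so few genes is no result about these cells. Fcer1a and Epx were at 0, and the list summed to between 29.0 and 31.1 CPM in LiKM and between 27.9 and 34.7 CPM in LiK.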

How the data were processed

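Liver messenger RNA of 6 mice was sequenced with a stranded kit, per the labels' protocols. The submitters' processing notes name featureCounts for counting and FastQC 0.11.7 for read quality. The aligner, build, annotation and strand setting were not given in the sources used here. Raw read counts, 1 row per gene symbol, were deposited by the authors. The 6 columns matched the animal codes in the titles. Mice were treated as separate animals.

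Counts were filtered with edgeR 4.0.16 (about 10 counts in 3 libraries, at least 15 in all) and scaled by TMM (factors 0.903 to 1.11). Genotype was the only term of the quasi-likelihood test (R 4.3.3), with Benjamini-Hochberg adjustment over 13537 genes. The script was tested on simulated data. Alternatives used other scalings, DESeq2 1.42.0, limma-voom 3.58.1, other filters, a replicate block and omission of each mouse. Members and lists were chosen with earlier results of these data known. Every member could be named, with values per mouse for called or near-called ones and for the most abundant of each role; list genes were named by smallest adjusted p, and Socs1, Foxp3 and Ly6g after their values were seen. Some items are not reported here. All 45 members matched GENCODE M21 exon lengths, and 35 a RefSeq promoter.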

Additional observations from a re-analysis of the deposited data

How the results depend on the processing

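Members called higher numbered 3 in the edgeR test and 8 by DESeq2, 5 by limma-voom, and 0 to 2 over the 6 fits without a mouse (0 without LiKM 2, LiK 1 or LiK 2). Members called lower numbered 0, with 2 by DESeq2, 2 by limma-voom and 0 to 1 without a mouse. Calls over all genes numbered 802, with 1591 by DESeq2, 1323 by limma-voom and 19 to 626 without a mouse. For JAK-STAT genes the count was 1, with 2 by DESeq2 and 0 to 2 without a mouse; for interleukin 1 signalling it was 1, with 2 by DESeq2 and 0 to 1 without a mouse; for interleukin 17 signalling it was 1, with 2 by DESeq2, 2 by limma-voom and 0 to 2 without a mouse; for receptor partners it was 2, with 5 by DESeq2 and 0 to 2 without a mouse. The other scalings and filters left these counts within 1.5 times. Library totals moved the median of all genes to 0.16 on the log2 scale, and relative to that Il11ra1, at 0.0513 against −0.11 with TMM, was still below it.

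Same-numbered mice correlated at 0.267, 0 and 0.127 in their deviations from the group means, and not every mouse did so best with its own number, so the numbers were not taken as pairs. With the replicate block, 3 members were called higher (Il10ra, Il2rb and Il1b, not Il2rg) and 1 lower (Il15ra), with 0 interleukin 1 signalling genes, 4 receptor partners and 835 genes in all called.

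Over 424 comparisons of a tested member with an alternative, 375 kept direction and side of the threshold, 17 gained the call, 15 lost it and 17 turned sign, all of these in genes that were not called. Without a mouse, the lowest values of those that turned were −0.0348 (Il13ra1), −0.0567 (Il1f9), −0.270 (Il20rb), −0.274 (Il12rb2), −0.102 (Il17ra) and −0.0164 (Il17rc), and the highest were 0.17, 0.75, 0.36, 0.25, 0.30 and 0.16 in that order. Il20rb was −0.28 by limma-voom, and Il12rb2 was −0.0231 with DESeq2's size factors, −0.0225 by DESeq2 and −0.0108 without a filter. The causes were not tested. Over all alternatives, the adjusted p ran from 4.19e-09 to 0.0619 for Il2rb, 0.00363 to 0.142 for Il2rg, 2.67e-05 to 0.0898 for Il10ra, 0.00393 to 0.172 for Il21r, 0.0102 to 0.184 for Il15ra, 0.0108 to 0.208 for Il33, 0.00534 to 0.211 for Il1rap, 0.0152 to 0.285 for Il22ra1, 0.00905 to 0.330 for Il1b and 0.0445 to 0.393 for Il12rb1, lowest with DESeq2 for each except Il12rb1, where it was lowest without LiKM 1. Depth limits the 24 members with under 100 counts in every mouse.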

Other observations

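Count ratios within a library, which involve no scaling, were also computed for receptor pairs. Il2rb over Il2rg was 1.01, 1.04 and 0.829 in LiKM and 0.244, 0.741 and 0.429 in LiK. Il10ra over Il10rb was 0.695, 0.836 and 0.634 in LiKM and 0.491, 0.474 and 0.511 in LiK. Neither ratio overlapped between the genotypes (exact 2-sided permutation p = 0.10 each, the smallest possible). Il1rn over Il1b was 4.10, 2.70 and 1.74 in LiKM and 17.8, 1.94 and 4.40 in LiK, with overlap (exact 2-sided permutation p = 0.40). Il1r1 over Il1rap was 1.15, 0.378 and 0.557 in LiKM and 1.46, 0.950 and 0.256 in LiK, also with overlap (exact 2-sided permutation p = 0.9). These were among 6 ratios computed after the values were seen.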
